A study of Mus musculus with 15 samples.

Results

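Microglia are the resident macrophages of the brain, and perivascular and meningeal macrophages occupy its borders. The 34 genes described here are widely used markers of these cells, and were found by symbol among the 45777 features of the count tables. The set was chosen with earlier results of these data known. They are described in striatal RNA sequencing of 15 wild type male ICR mice, an outbred stock, aged 7 weeks. The groups were F1 METH (n = 3), F1 saline (n = 4), F2 METH (n = 4) and F2 saline (n = 4). F1 mice were sons, and F2 mice grandsons through an F1 son, of founder males injected subcutaneously with methamphetamine (METH, a psychostimulant) at 5 mg/kg or with saline at 10 mL/kg over 21 days, from 6 weeks of age. The females in both matings were untreated, and the injections described in the labels were given to the founders. Which founder or litter each animal came from is not given in the sources used here, so p-values measure the spread between these animals only, and animals of 1 family would not be independent.

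Microglia enter the brain early in embryonic life and then maintain themselves locally, under signals from the receptor encoded by Csf1r. They survey tissue with ADP and chemokine receptors, supply the complement protein C1q that can tag synapses, and engulf tagged or dying material. The transcription factor PU.1, product of Spi1, binds DNA at sites built on the letters GAGGAA and is needed for the whole macrophage lineage.

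The letters GAGGAA were searched on both strands of the 250 bases before each transcript start listed by RefSeq on GRCm38.p6, the same build as mm10. They occurred in 7639 of all 32851 such windows, or 23.3%, and in 16 of the 31 windows of member genes, which belong to 15 of the 26 members with an entry. The longer form GAGGAAGT, which contains GAGGAA, was found in 2.44% of all windows and in those of C1qc and Pf4. Such a match is a run of letters and not a measured binding site. Below are the windows of 4 members whose values are given further down, 2 neighbours of the C1q locus, the receptor gene Trem2 and the leukocyte gene Ptprc, each written 5′ to 3′ on the strand of its gene with the GAGGAA letters in capitals, or TTCCTC where they lie on the opposite strand. The first matching base lies at position -30 from the start in C1qb, -193 in C1qc, -40 in Trem2 and -158 in Ptprc. Aif1, Cd53, Cd68, Ctss, Fcgr3, Fcrls, Itgam, Laptm5, Mrc1, P2ry13 and Pf4 also held the letters.
C1qb (chr4:136886201-136886450, minus strand): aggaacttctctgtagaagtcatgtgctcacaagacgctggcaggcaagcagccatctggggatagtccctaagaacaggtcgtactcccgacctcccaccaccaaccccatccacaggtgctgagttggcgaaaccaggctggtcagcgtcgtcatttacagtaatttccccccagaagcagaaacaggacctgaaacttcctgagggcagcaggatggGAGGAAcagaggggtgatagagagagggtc
C1qc (chr4:136892915-136893164, minus strand): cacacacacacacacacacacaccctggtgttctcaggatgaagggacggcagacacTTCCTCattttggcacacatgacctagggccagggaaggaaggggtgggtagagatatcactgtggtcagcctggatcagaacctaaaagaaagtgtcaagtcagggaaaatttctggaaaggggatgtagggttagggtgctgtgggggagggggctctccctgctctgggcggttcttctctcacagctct
Trem2 (chr17:48346151-48346400, plus strand): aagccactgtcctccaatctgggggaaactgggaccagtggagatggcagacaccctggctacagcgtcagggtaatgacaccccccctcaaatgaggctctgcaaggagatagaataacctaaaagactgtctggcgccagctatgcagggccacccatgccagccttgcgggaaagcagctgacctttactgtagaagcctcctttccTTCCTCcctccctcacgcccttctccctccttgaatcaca
Ptprc (chr1:138175306-138175555, minus strand): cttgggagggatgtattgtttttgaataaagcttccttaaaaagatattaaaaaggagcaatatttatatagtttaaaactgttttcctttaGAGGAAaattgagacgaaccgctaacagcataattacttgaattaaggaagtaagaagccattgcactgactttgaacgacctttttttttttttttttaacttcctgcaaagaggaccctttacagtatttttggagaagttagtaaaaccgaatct

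Depth, library by library, ranged from 32805918 to 38514778 counts in F1 METH, 35044343 to 37659436 in F1 saline, 31563806 to 47199267 in F2 METH and 34622167 to 50573906 in F2 saline. The members took between 19187 and 36409 of these counts in a library. Although the labels call the cell type neuronal, the tissue is striatum, and Csf1r and Tmem119, defining microglial genes, were read in every library. Markers of blood leukocytes were near 0. Of the 12 lymphocyte genes, Cd3e had 0 counts in all 15 libraries and Cd4, which reached 133 CPM (counts scaled to a common library total), was the only one above 0.47 CPM. Of the 12 monocyte and neutrophil genes, Camp and Cd177 had 0 counts in all libraries, Ly6c2 reached 5.20 CPM and the next highest, S100a8, reached 0.364 CPM.

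Per unit of transcript length, the most abundant members were lysosomal, complement and receptor genes. In TPM, the length-scaled abundance that the authors deposited, Ctss, encoding the lysosomal protease cathepsin S, was highest in F2, at 89.8 ± 17.7 in METH and 93.6 ± 23.1 in saline libraries (mean ± SD). C1qa was highest in F1, at 89.6 ± 18.6 in METH and 83.6 ± 9.82 in saline libraries, with Ctss next at 79.1 ± 17.7 in METH and 72.3 ± 10.8 in saline libraries. The ranges of C1qa and Ctss overlapped in both F1 groups. At the other end, Ptprc, Mrc1, Cd163, Pf4 and Lyve1 averaged at most 1.15 TPM in every group. Lyve1, for example, averaged 0.462 TPM in F1 METH and 0.518 TPM in F1 saline libraries. The median coefficient of variation of the members' CPM within a group was 18.4% in F1 METH, 12.9% in F1 saline, 14.5% in F2 METH and 19.1% in F2 saline. Pf4 varied most in 3 groups and Aif1 in F1 METH.

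In sons, most of the genes were at higher CPM in METH than in saline libraries, by small amounts that did not pass the test. The log2 fold change was above 0 for 30 of 34 members, with a median of 0.16, where 49.1% of all 18499 genes tested were above 0 and their median was -0.0035. In grandsons the sign was the other way: 29 of the 33 members tested were below 0, with a median of -0.14, where 49.5% of all 18093 genes were above 0 and their median was -0.0020. No member passed an adjusted p of 0.05 in edgeR's quasi-likelihood test with Benjamini-Hochberg adjustment (0 of 34 in F1 and 0 of 33 in F2), and neither did any gene of the whole table (0% in F1 and 0% in F2). DESeq2's Wald test and limma-voom also called 0 members in either generation. At an unadjusted p under 0.05 the count was 2 of 34 members in F1, both higher, where 4.18% of all genes passed, 2.52% with METH higher and 1.66% with METH lower. In F2 it was 5 of 33, all lower, where 4.77% of all genes passed, 2.66% with METH lower and 2.11% with METH higher. The smallest adjusted p of a member was 0.994 in F1 and 0.960 in F2. A p that misses the threshold does not show that the groups were alike.

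**Figure D1:**
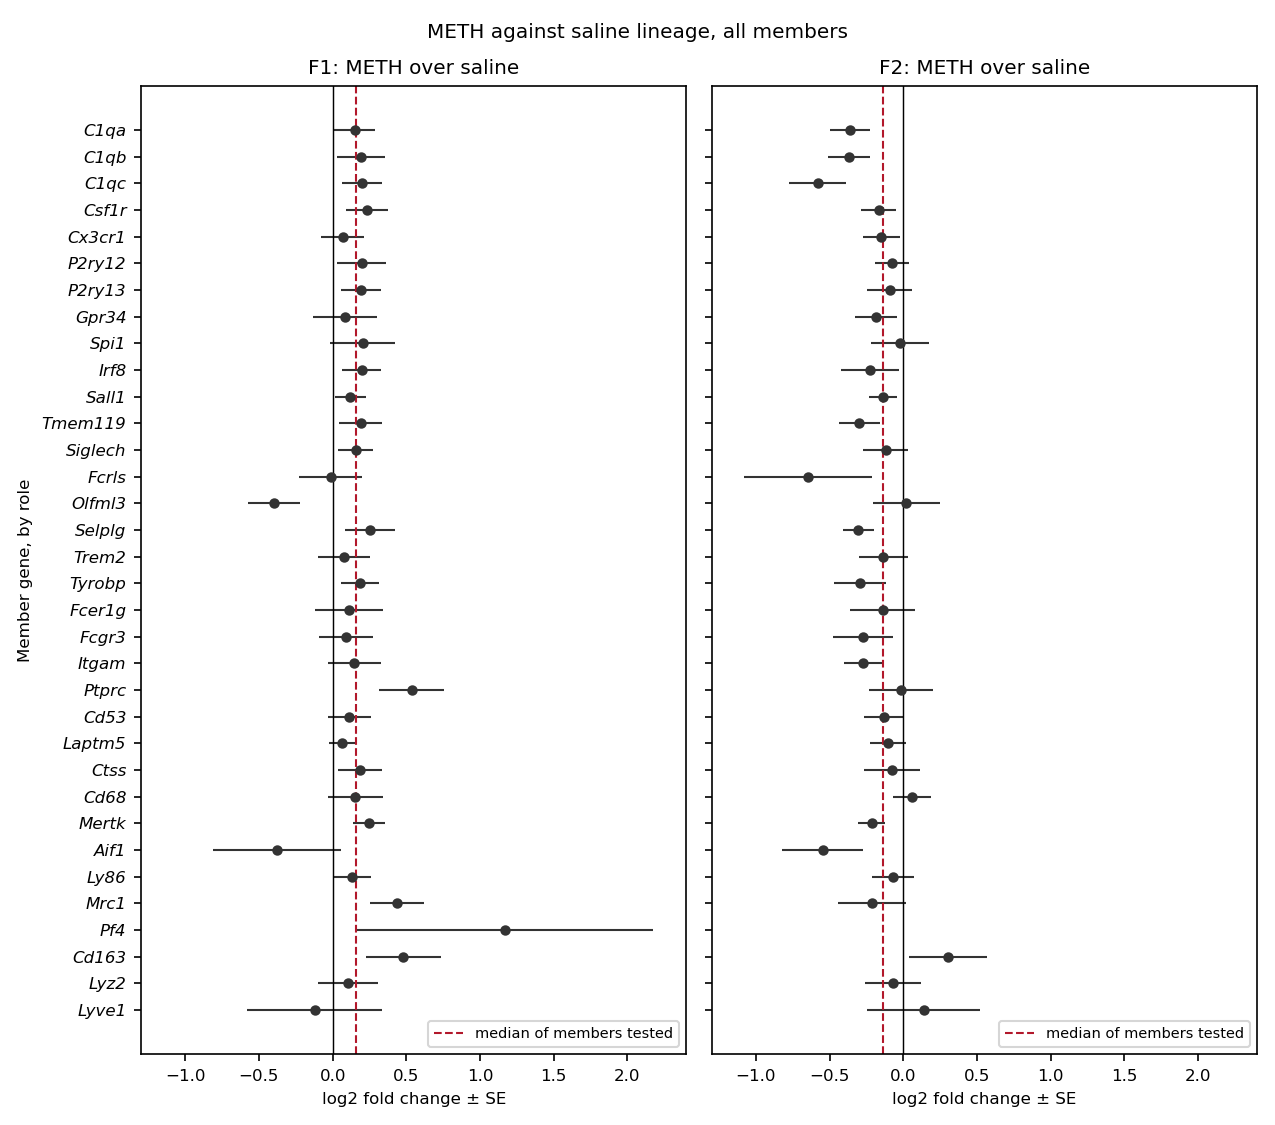
Log2 fold change of METH over saline with its standard error for each of the 34 members (rows, grouped by role) in F1 (left) and F2 (right); the dashed line is the median of the members tested, 0.16 in F1 and -0.14 in F2. Most points lie right of 0 in F1 and left of 0 in F2, with error bars that often reach 0; Pf4 was not tested in F2.

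In each generation, 1 library stood above the rest for most members. In F1 this was METH replicate 3, the highest of the 7 libraries for 24 of 34 members and above the generation's mean for 29, by 0.27 on the log2 scale on average. In F2 it was saline replicate 1, the highest of the 8 libraries for 24 of 34 members and above the mean for 29, by 0.34 on average. Summed over the 34 genes, the libraries had 614, 627 and 803 CPM in F1 METH, against 645, 574, 659 and 575 CPM in F1 saline. In F2 the sums were 578, 630, 607 and 688 CPM in METH, against 853, 719, 725 and 568 CPM in saline libraries. The highest sum in each generation was that of the library just named, and METH and saline sums overlapped in both. In bulk tissue, fewer microglia and less RNA per microglial cell cannot be told apart.

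**Figure D2:**
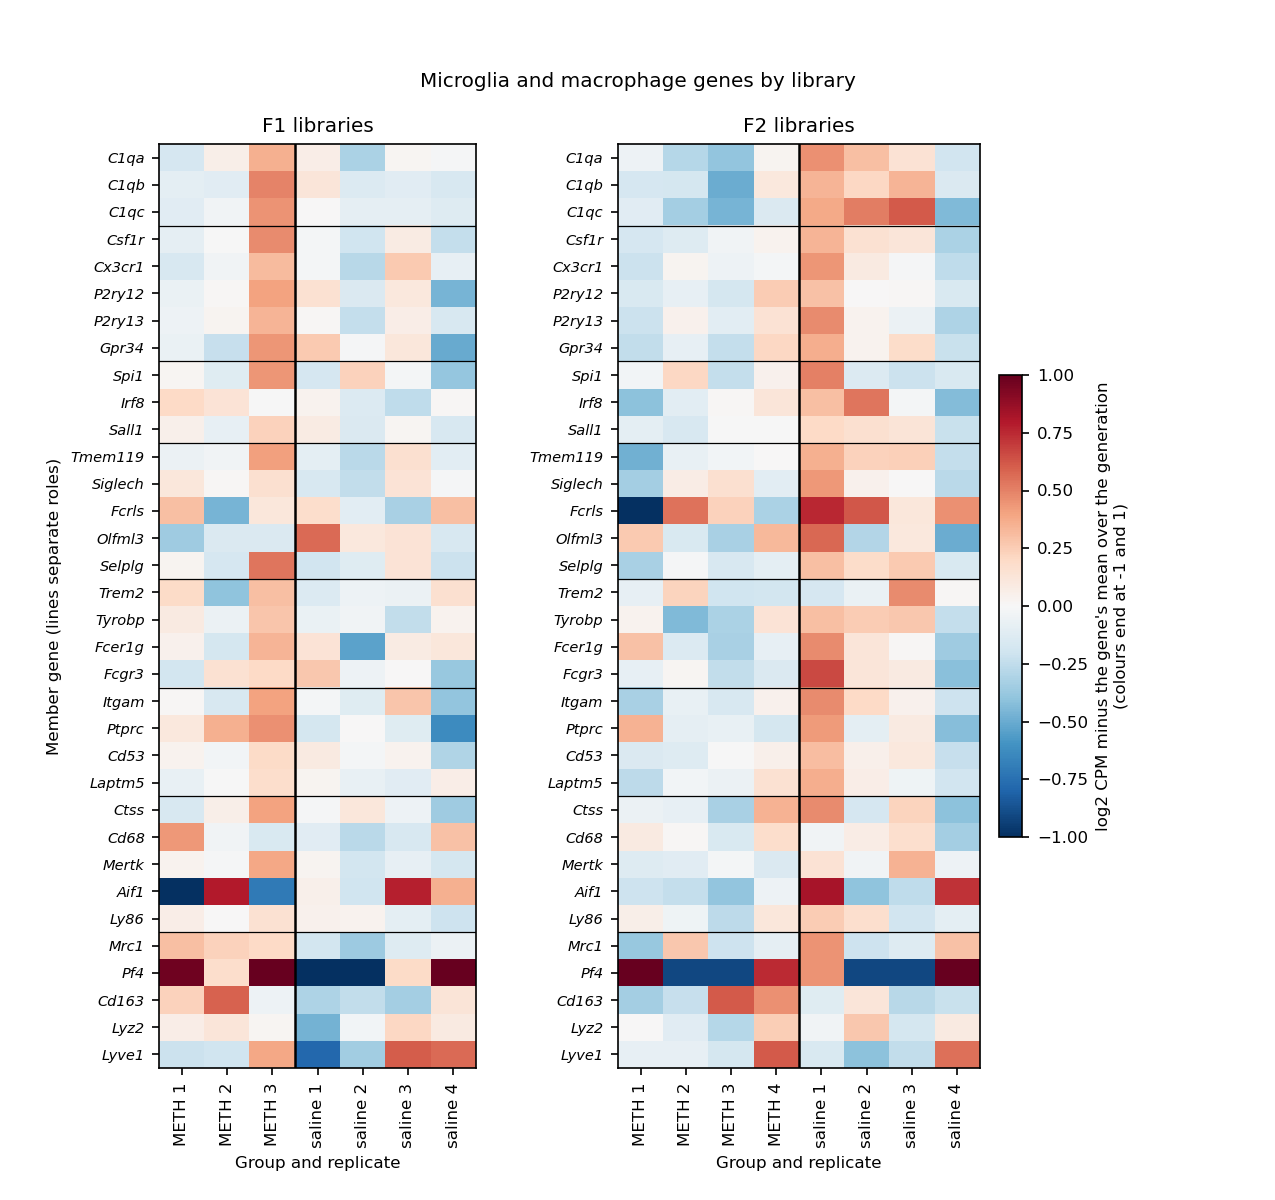
Each cell is a gene's log2 CPM in 1 library minus its mean over the libraries of that generation (rows, the 34 members by role; columns, libraries, METH left of the black line and saline right of it). The columns of F1 METH replicate 3 and F2 saline replicate 1 are red for 29 of 34 members each; Pf4 and Aif1 swing between libraries of 1 group.

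Without F1 METH replicate 3, 23 of 34 members were above 0 and the median was 0.02. Without F2 saline replicate 1, 20 of 33 members were below 0 and the median was -0.07. In the other direction, without F2 saline replicate 4, the lowest F2 library for 12 members, 31 of 33 were below 0 and the median was -0.23. Leaving out F1 METH replicate 3 moved the F1 log2 fold change of Csf1r to 0.037, P2ry12 to 0.038, Spi1 to 0.017, Tmem119 to 0.020, Tyrobp to 0.093 and Mertk to 0.11, and turned Cx3cr1 to -0.085 and Trem2 to -0.064. Leaving out F2 saline replicate 1 moved the F2 value of Csf1r to -0.075, Cx3cr1 to -0.0090 and Mrc1 to -0.081, and turned P2ry12 to 0.017. Other cell types of the striatum differed between the same libraries. The summed CPM of 8 astrocyte genes was 4342, 4120 and 6009 in F1 METH, against 3623 to 4190 in F1 saline libraries, and 4091 to 4666 in F2 METH, against 5500, 4664, 5085 and 4229 in F2 saline libraries. The sum of 8 oligodendrocyte genes was 7708, 10259 and 10828 CPM in F1 METH, against 6884 to 8613 CPM in F1 saline, and 7897 to 9919 CPM in F2 METH, against 13329, 8849, 11080 and 7124 CPM in F2 saline libraries. In F1 METH against saline, 7 of 8 astrocyte (median 0.18) and 8 of 8 oligodendrocyte genes (median 0.30) had log2 fold changes above 0, and in F2 0 of 8 (median -0.18) and 0 of 8 (median -0.14). At an unadjusted p under 0.05 there were 2 astrocyte and 4 oligodendrocyte genes in F1, where 4.18% of all genes passed. In F2 there were 4 and 0, where 4.77% of all genes passed, and 0 genes of either list passed after adjustment. Both sums were highest in F1 METH replicate 3 and in F2 saline replicate 1, as was that of the members. Genes of vessels and meninges were also examined, with 7 of 8 endothelial, 8 of 8 pericyte and smooth muscle and 7 of 8 meningeal fibroblast genes above 0 in F1, and 2 of 8, 5 of 8 and 1 of 8 in F2. Haemoglobin and other erythrocyte genes summed to 124 to 170 CPM in F1 METH, against 115 to 844 CPM in F1 saline libraries, the highest being saline replicate 4. Slc17a7, a cortical excitatory neuron gene, had 31.0, 24.0 and 396 CPM in F1 METH, against 322, 98.0, 526 and 9.47 CPM in F1 saline libraries. In F2 Slc17a7 had 10.8, 130, 75.3 and 67.2 CPM in METH, against 10.5, 9.80, 55.9 and 182 CPM in saline libraries, so that it was high in libraries of both groups of F1 and near its lowest in F2 saline replicate 1. Of 8 cortical excitatory neuron genes, with Slc17a7 among them, 0 were above 0 in F1 (median -0.65) and 5 in F2 (median 0.055). Of 9 spiny projection neuron genes, 8 were above 0 in F1 (median 0.17) and 8 in F2 (median 0.066). Both lists had 0 genes at an unadjusted p under 0.05. The part that these differences in tissue make-up have in the members' values was not tested.

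**Figure D3:**
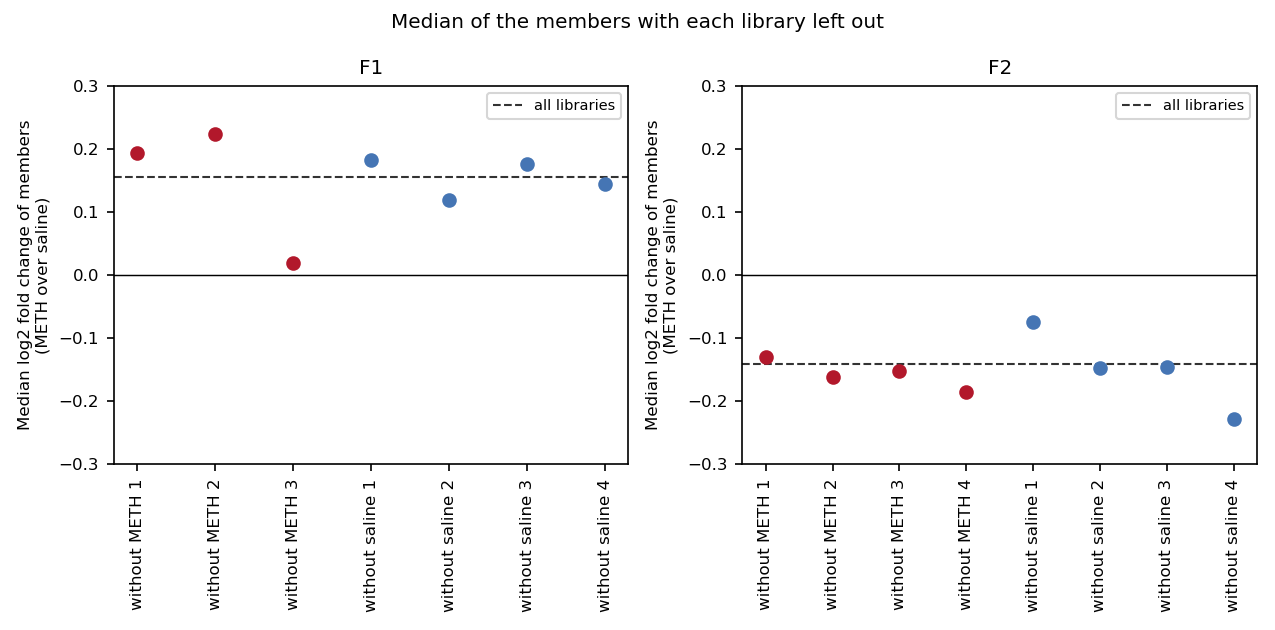
Median log2 fold change of the members, METH over saline, when the library named on the x axis was left out (red, METH; blue, saline), with the median over all libraries as a dashed line. In F1 the median drops to 0.02 without METH replicate 3; in F2 it lies between -0.23 and -0.07 and stays below 0.

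C1qa, C1qb and C1qc encode the 3 chains of C1q, the recognition protein of the classical complement pathway, and lie side by side on chromosome 4 (C1qb 136880126 to 136886200, C1qc 136889801 to 136892936, C1qa 136895916 to 136898844). All 3 had F2 log2 fold changes below 0 at an unadjusted p under 0.05 and F1 log2 fold changes above 0, and none passed after adjustment.

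C1qa had 34.1, 40.04 and 49.1 CPM in F1 METH, against 40.3, 30.7, 38.8 and 38.1 CPM in F1 saline libraries. In F2 it had 24.8, 21.1, 19.6 and 26.2 CPM in METH, against 35.3, 31.7, 28.4 and 22.5 CPM in saline libraries. The groups overlapped in both generations, in F2 through the single low saline replicate 4. The log2 fold change of C1qa was 0.15 (SE 0.14) in F1 and -0.36 (SE 0.14) in F2, and the F1 value was 0.00054 without METH replicate 3.

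C1qb had 21.9, 21.7 and 33.1 CPM in F1 METH, against 25.5, 21.4, 21.6 and 20.9 CPM in F1 saline libraries. Its F2 values were 15.9, 15.9, 12.7 and 19.3 CPM in METH, against 22.7, 20.6, 22.7 and 16.2 CPM in saline libraries. Again F1 METH replicate 3 was the high library and F2 saline replicate 4 the low one, and the groups overlapped. The log2 fold change was 0.19 (SE 0.16) in F1 and -0.37 (SE 0.14) in F2. Without F1 METH replicate 3 the F1 value of C1qb was -0.039.

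C1qc had 22.3, 23.5 and 32.8 CPM in F1 METH, against 24.2, 22.6, 22.6 and 21.9 CPM in F1 saline libraries. Among F2 libraries C1qc had 18.5, 15.8, 14.5 and 18.0 CPM in METH, against 26.0, 28.5, 30.6 and 14.7 CPM in saline libraries. Here 3 saline libraries lay above every METH library and saline replicate 4 lay among them. C1qc had the smallest unadjusted F2 p of the members, with a log2 fold change of -0.58 (SE 0.19, adjusted p = 0.960), which leaving out 1 library moved between -0.77 and -0.47. In F1 it was 0.20 (SE 0.14), and 0.0031 without METH replicate 3.

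The C1q genes were also set against another microglial gene of the same library. The summed CPM of the 3 C1q genes divided by that of Csf1r was 0.906, 0.931 and 0.901 in F1 METH, against 0.990, 0.933, 0.854 and 1.04 in F1 saline libraries. In F2 this ratio was 0.616, 0.535, 0.444 and 0.576 in METH, against 0.614, 0.673, 0.697 and 0.617 in saline libraries. The lowest saline ratio in F2 lay just under the highest METH ratio, and in F1 the groups overlapped widely. Every F2 ratio was below every F1 ratio, but the generations were deposited as separate tables and their levels cannot be told apart from the table. Among the 3 chains, C1qc over C1qb in TPM ran from 1.04 to 1.13 in F1 METH, 0.982 to 1.10 in F1 saline, 0.974 to 1.21 in F2 METH and 0.942 to 1.44 in F2 saline. C1qa over C1qb in TPM ran from 1.52 to 1.89 in F1 METH, 1.47 to 1.86 in F1 saline, 1.36 to 1.59 in F2 METH and 1.27 to 1.58 in F2 saline. Both ratios overlapped between METH and saline in each generation.

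**Figure D4:**
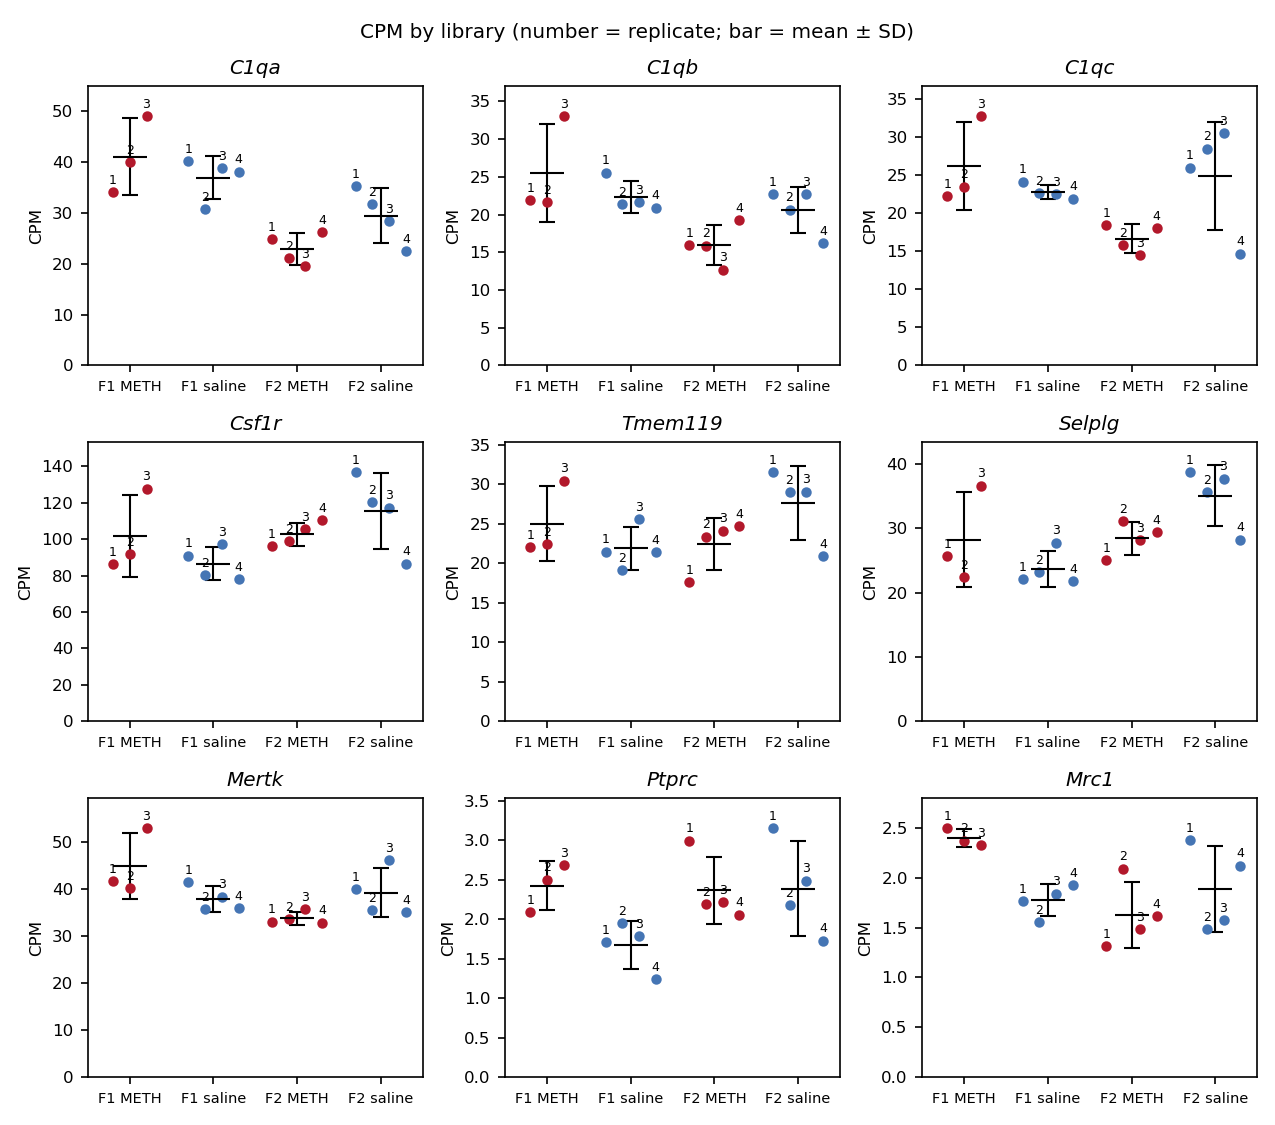
CPM of 9 members in each library (points, with the replicate number; red METH, blue saline), with the group mean and SD (black bars). F1 METH replicate 3 is the highest F1 point for C1qa, C1qb, C1qc, Csf1r, Tmem119, Selplg, Mertk and Ptprc, and the 3 METH libraries lie above all 4 saline libraries in F1 only for Ptprc and Mrc1 of the genes drawn.

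The 5 receptors for soluble ligands were all above 0 in F1 (median 0.19) and all below 0 in F2 (median -0.15), with none at an unadjusted p under 0.05. They are Csf1r, the receptor for CSF-1 and IL-34, Cx3cr1, the receptor for the neuronal chemokine fractalkine, the ADP receptors P2ry12 and P2ry13, and Gpr34, a receptor for lysophosphatidylserine. Csf1r had 86.4, 91.5 and 128 CPM in F1 METH, against 90.9, 80.1, 97.2 and 78.0 CPM in F1 saline libraries. The F2 values of Csf1r were 96.1, 98.7, 105 and 110 CPM in METH, against 137, 120, 117 and 86.6 CPM in saline libraries. The highest F1 library was METH replicate 3, as for all 3 C1q genes, the highest F2 library was saline replicate 1, as for C1qa, and the groups overlapped. Csf1r had a log2 fold change of 0.23 (SE 0.14) in F1 and -0.17 (SE 0.12) in F2.

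Cx3cr1 had 49.9, 54.2 and 69.1 CPM in F1 METH, against 55.0, 46.0, 66.7 and 52.5 CPM in F1 saline libraries. Its F2 values were 58.9, 69.8, 66.1 and 67.6 CPM in METH, against 93.0, 72.8, 67.7 and 57.4 CPM in saline libraries. The groups overlapped, and the log2 fold change was 0.07 (SE 0.15) in F1 and -0.15 (SE 0.13) in F2. P2ry12, whose product draws microglial processes towards ADP, had 36.9, 38.9 and 50.9 CPM in F1 METH, against 43.0, 34.9, 41.4 and 28.0 CPM in F1 saline libraries. In F2 P2ry12 had 40.1, 42.2, 39.5 and 53.3 CPM in METH, against 54.7, 44.8, 44.9 and 40.03 CPM in saline libraries. The groups overlapped again in both generations, with log2 fold changes of 0.20 (SE 0.17) in F1 and -0.07 (SE 0.12) in F2. P2ry13 and Gpr34 averaged between 12.5 and 15.3 CPM in the 4 groups and had log2 fold changes of 0.19 and 0.08 in F1 and -0.09 and -0.18 in F2. P2ry12 and P2ry13 lie within Med12l and Gpr34 overlaps Cask, and as the strandedness of the libraries is not given in the sources used here, reads of overlapping genes cannot be told apart.

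Of the transcription factors, Spi1 (PU.1), Irf8, which acts with PU.1 in macrophages, and Sall1, a zinc finger factor of microglial identity, all had log2 fold changes above 0 in F1 (median 0.20) and below 0 in F2 (median -0.14). Spi1 had 3.00, 2.71 and 4.02 CPM in F1 METH, against 2.62, 3.47, 2.92 and 2.24 CPM in F1 saline libraries. The F2 values of Spi1 were 3.23, 3.81, 2.78 and 3.40 CPM in METH, against 4.69, 2.99, 2.83 and 2.96 CPM in saline libraries. In F2, 3 saline libraries were close together and saline replicate 1 lay above them, and the F2 log2 fold change was -0.02 (SE 0.20) with it and 0.18 without it. The F1 log2 fold change of Spi1 was 0.20 (SE 0.22). Irf8 averaged 7.70 ± 0.552 CPM in F1 METH and 6.72 ± 0.634 CPM in F1 saline libraries, and 8.78 ± 1.34 CPM in F2 METH and 10.3 ± 2.85 CPM in F2 saline libraries. Sall1 averaged 27.8 ± 3.04 CPM in F1 METH and 25.6 ± 2.14 CPM in F1 saline libraries, and 30.0 ± 1.59 CPM in F2 METH and 33.0 ± 4.17 CPM in F2 saline libraries. The groups of both genes overlapped in each generation, though the F1 means of Irf8 lay further apart than either SD.

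Among the surface and secreted genes of resting microglia, Selplg gave the second smallest unadjusted F2 p of the members. It encodes PSGL-1, a ligand of selectins. Selplg had 25.6, 22.4 and 36.6 CPM in F1 METH, against 22.1, 23.2, 27.7 and 21.8 CPM in F1 saline libraries. The F2 values of Selplg were 25.1, 31.1, 28.1 and 29.3 CPM in METH, against 38.7, 35.6, 37.7 and 28.2 CPM in saline libraries. As for C1qc, 3 F2 saline libraries lay above every METH library and saline replicate 4 did not. Selplg had a log2 fold change of 0.25 (SE 0.17) in F1 and -0.30 (SE 0.11, adjusted p = 0.960) in F2, and the F1 value was 0.018 without METH replicate 3. Tmem119, a membrane protein that separates microglia from other macrophages, had 22.1, 22.4 and 30.5 CPM in F1 METH, against 21.4, 19.1, 25.6 and 21.4 CPM in F1 saline libraries. Its F2 values were 17.6, 23.4, 24.1 and 24.7 CPM in METH, against 31.6, 29.0, 29.1 and 20.9 CPM in saline libraries. The same 3 F2 saline libraries were high, and the log2 fold change of Tmem119 was 0.19 (SE 0.15) in F1 and -0.30 (SE 0.14) in F2.

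Olfml3, which encodes a secreted matrix glycoprotein, was the member with the lowest F1 log2 fold change, at -0.40 (SE 0.18). It had 7.96, 9.22 and 9.24 CPM in F1 METH, against 15.1, 11.0, 11.2 and 9.10 CPM in F1 saline libraries, where the lowest saline library lay between the METH libraries. In F2 it had 15.1, 11.3, 10.1 and 15.8 CPM in METH, against 18.7, 10.3, 13.6 and 8.93 CPM in saline libraries, and its log2 fold change there was 0.02 (SE 0.23). Olfml3 thus differed from most members in its F1 sign, which it shared with Fcrls, Aif1 and Lyve1. Fcrls, an Fc receptor-like gene of microglia named here after its values were seen, had 2.57, 19.98, 16.1 and 11.0 CPM in F2 METH, against 23.1, 21.1, 14.8 and 18.8 CPM in F2 saline libraries. F2 METH replicate 1 was the low library. Its F2 log2 fold change of -0.65 (SE 0.43) was the lowest of the members, had a wide error and was -0.31 without METH replicate 1, and in F1 it was -0.01 (SE 0.21). Siglech, a sialic acid-binding receptor, averaged 17.2 ± 0.907 CPM in F1 METH and 15.5 ± 1.85 CPM in F1 saline libraries, and 15.5 ± 2.31 CPM in F2 METH and 16.8 ± 3.49 CPM in F2 saline libraries.

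The 4 genes of ITAM signalling, in which an adaptor carries the signal of a receptor that has no signalling tail of its own, were all above 0 in F1 (median 0.10) and all below 0 in F2 (median -0.21). Trem2, a receptor for lipids and lipoproteins (chromosome 17, 48346401 to 48352276), had 12.4, 8.17 and 13.4 CPM in F1 METH, against 9.86, 10.5, 10.4 and 12.1 CPM in F1 saline libraries. Trem2 in F2 had 6.46, 7.99, 5.94 and 6.01 CPM in METH, against 6.07, 6.54, 9.52 and 6.89 CPM in saline libraries. The METH libraries lay on both sides of the saline ones in F1, and only F2 saline replicate 3 lay above all METH libraries in F2. Trem2 had a log2 fold change of 0.08 (SE 0.18) in F1 and -0.14 (SE 0.17) in F2. Tyrobp, the adaptor DAP12 of Trem2, had 9.95, 8.98 and 11.3 CPM in F1 METH, against 8.92, 9.10, 7.88 and 9.55 CPM in F1 saline libraries. Its F2 values were 5.12, 3.66, 3.98 and 5.48 CPM in METH, against 6.15, 5.96, 6.03 and 4.21 CPM in saline libraries. In F2, 3 saline libraries lay above all METH libraries and saline replicate 4 among them, with a log2 fold change of -0.29 (SE 0.18), against 0.19 (SE 0.13) in F1. Fcer1g, the shared gamma chain of Fc receptors, had log2 fold changes of 0.11 in F1 and -0.14 in F2, and Fcgr3, an IgG receptor, 0.09 in F1 and -0.27 in F2.

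Ptprc, which encodes CD45 and marks leukocytes (chromosome 1, 138062859 to 138175756), was 1 of the 2 members whose F1 groups did not overlap. It had 2.09, 2.50 and 2.69 CPM in F1 METH, against 1.71, 1.95, 1.79 and 1.24 CPM in F1 saline libraries. Each METH value exceeded each saline value. For Ptprc this was a log2 fold change of 0.54 (SE 0.22, adjusted p = 0.994), between 0.42 and 0.63 when 1 library was left out. In F2 Ptprc had 2.99, 2.19, 2.21 and 2.06 CPM in METH, against 3.16, 2.18, 2.49 and 1.73 CPM in saline libraries, and the log2 fold change was -0.02 (SE 0.22). Its counts were low, from 47 to 125 reads in a library. The F1 groups did not overlap, with METH higher, for 2 of 34 members, where the same held for 3.08% of all genes tested, with METH lower for a further 2.42% and 5.5% in all. In F2 no member's groups were apart, where 2.54% of all genes were, 1.34% with METH higher and 1.2% with METH lower. The other leukocyte membrane genes are Itgam (the integrin CD11b), the tetraspanin Cd53 and the lysosomal protein Laptm5, and their log2 fold changes were 0.15, 0.11 and 0.06 in F1 and -0.27, -0.13 and -0.11 in F2.

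Mertk, a receptor tyrosine kinase through which dying cells are engulfed and which astrocytes also make (chromosome 2, 128698915 to 128803162), had 41.7, 40.3 and 53.1 CPM in F1 METH, against 41.5, 35.8, 38.5 and 36.0 CPM in F1 saline libraries. Among F2 libraries Mertk had 33.2, 33.6, 35.9 and 32.9 CPM in METH, against 40.1, 35.6, 46.3 and 35.1 CPM in saline libraries. The F2 METH libraries were close together, and 3 of them lay below every saline library. Mertk had a log2 fold change of 0.25 (SE 0.11) in F1 and -0.21 (SE 0.091, adjusted p = 0.960) in F2. Cd68, a lysosomal glycoprotein, had 13.8, 9.92 and 9.15 CPM in F1 METH, against 9.36, 8.42, 9.09 and 12.4 CPM in F1 saline libraries. Its F2 values were 10.5, 9.97, 8.89 and 11.2 CPM in METH, against 9.60, 10.4, 11.1 and 7.78 CPM in saline libraries. Cd68 was not highest in the libraries that led most members, and its log2 fold changes were 0.15 (SE 0.19) in F1 and 0.06 (SE 0.13) in F2.

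Aif1, which encodes the actin-binding protein IBA1 used to stain microglia, had the widest spread of the members in F1 METH, with a coefficient of variation of 73.8%, against 30.1% in F1 saline libraries. In F2 it was 10.1% in METH and 42.7% in saline libraries. Aif1 had 4.21, 15.4 and 5.40 CPM in F1 METH, against 9.19, 7.71, 15.2 and 11.4 CPM in F1 saline libraries. In F2 it had 3.52, 3.43, 3.07 and 3.93 CPM in METH, against 7.23, 3.05, 3.40 and 6.72 CPM in saline libraries. F1 METH replicate 2 and F1 saline replicate 3 were high, and in F2 saline replicates 1 and 4 were high, saline replicate 3 lay among the METH libraries and saline replicate 2 just below the lowest of them. The log2 fold change of Aif1 was -0.38 (SE 0.43) in F1 and -0.55 (SE 0.27) in F2. The F1 value ran from -1.18 without METH replicate 2 to -0.062 without METH replicate 1, and the F2 value from -0.73 without saline replicate 2 to -0.33 without saline replicate 1. Ctss averaged 45.4 ± 9.15 CPM in F1 METH and 39.9 ± 5.31 CPM in F1 saline libraries, and 45.5 ± 9.18 CPM in F2 METH and 48.0 ± 13.002 CPM in F2 saline libraries. Ly86, which encodes the MD-1 partner of a Toll-like receptor relative, had log2 fold changes of 0.13 in F1 and -0.07 in F2.

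The border macrophage genes, of which 4 of 5 were above 0 in F1 (median 0.44) and 2 of the 4 tested in F2 (median 0.03), had low counts. Mrc1, the mannose receptor CD206 (chromosome 2, 14229414 to 14332023), was the other member whose F1 groups did not overlap. It had 2.50, 2.37 and 2.32 CPM in F1 METH, against 1.77, 1.55, 1.84 and 1.93 CPM in F1 saline libraries. The METH libraries were close together above all 4 saline libraries, and METH replicate 3 was the lowest of them. Mrc1 thus had a log2 fold change of 0.44 (SE 0.18, adjusted p = 0.994), between 0.37 and 0.48 when 1 library was left out. In F2 Mrc1 had 1.31, 2.09, 1.49 and 1.61 CPM in METH, against 2.37, 1.48, 1.57 and 2.12 CPM in saline libraries, with overlap and a log2 fold change of -0.21 (SE 0.23). Between 47 and 98 reads per library stand behind these values.

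Cd163, a scavenger receptor for haemoglobin bound to haptoglobin, had 1.59, 2.06 and 1.30 CPM in F1 METH, against 1.08, 1.13, 1.05 and 1.48 CPM in F1 saline libraries. In F2 it had 1.10, 1.19, 2.18 and 1.95 CPM in METH, against 1.29, 1.54, 1.15 and 1.199 CPM in saline libraries. Its log2 fold change was above 0 in both generations, 0.48 (SE 0.25) in F1 and 0.30 (SE 0.26) in F2, with overlapping groups. The F1 value of Cd163 ran from 0.29 without METH replicate 2 to 0.62 without METH replicate 3, and the F2 value from 0.12 without METH replicate 3 to 0.45 without METH replicate 1. Lyve1, a hyaluronan receptor, had 0.437, 0.443 and 0.694 CPM in F1 METH, against 0.276, 0.395, 0.814 and 0.791 CPM in F1 saline libraries. Its F2 values were 0.341, 0.341, 0.316 and 0.585 CPM in METH, against 0.324, 0.262, 0.299 and 0.558 CPM in saline libraries. Within each F2 group, replicate 4 was the high library, and the log2 fold change of Lyve1 was -0.12 (SE 0.46) in F1 and 0.14 (SE 0.38) in F2. Lyz2, encoding lysozyme, averaged 2.84 ± 0.0972 CPM in F1 METH and 2.65 ± 0.514 CPM in F1 saline libraries, and 1.98 ± 0.317 CPM in F2 METH and 2.08 ± 0.285 CPM in F2 saline libraries. Pf4, the chemokine CXCL4, had at most 12 reads and 0 reads in 6 of 15 libraries, where 0 reads allow a level of up to 0.0597 to 0.0949 CPM (3 counts per library, counting error only). It was too low to be tested in F2, and its F1 log2 fold change of 1.17 had an SE of 1.0.

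The difference between the generations, that is the METH over saline log2 fold change in F2 minus that in F1, was tested over all 15 libraries. It was below 0 for 32 of 34 members, with a median of -0.28, where 49.9% of all 19308 genes tested were above 0 and their median was -0.00057. The difference was also below 0 for 8 of 8 genes each of astrocytes (median -0.39), oligodendrocytes (-0.44), endothelium (-0.25), pericytes and smooth muscle (-0.23) and meningeal fibroblasts (-0.47). Of these lists, 5, 3, 2, 0 and 2 genes had an unadjusted p under 0.05. Spiny projection neuron genes were below 0 for 8 of 9 (median -0.11), and cortical excitatory neuron genes above 0 for 8 of 8 (median 0.54). Olfml3 (0.41, SE 0.32) and Lyve1 (0.25, SE 0.60) were the members above 0. No member passed an adjusted p of 0.05 in edgeR, and 1 of all genes did (0.00518%). At an unadjusted p under 0.05 there were 8 of 34 members, all lower, where 4.88% of all genes passed, 3.16% with a lower value and 1.72% with a higher one. These 8 were Mertk, C1qc, Selplg, C1qb, C1qa, Mrc1, Tmem119 and Tyrobp. Mertk had the smallest p, with a difference of -0.47 (SE 0.15, adjusted p = 0.898), and C1qc the next, with -0.79 (SE 0.27, adjusted p = 0.898). For Selplg the difference was -0.57 (SE 0.21), for Mrc1 -0.65 (SE 0.28) and for Tmem119 -0.50 (SE 0.22). DESeq2's Wald test and limma-voom called 0 members here too. Without both F1 METH replicate 3 and F2 saline replicate 1, a setting chosen after seeing the data, 26 of 34 members were below 0 and the median was -0.16. The labels do not say which F1 male sired which F2 mouse, and the test took the 15 libraries as independent. The saline column labels carry the same animal numbers in F1 and F2, as do some of the METH labels. Whether shared numbers mark related animals is not stated.

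Genes that work with the members were examined in 6 further lists, and 0 genes of any list passed the adjusted threshold in either generation or for the difference. Of 20 further homeostatic microglia genes, 16 were above 0 in F1 (median 0.13) and 17 below 0 in F2 (median -0.20). Crybb1, a lens crystallin gene that microglia also express, was an exception in F1, where it had 1.84, 2.24 and 2.69 CPM in METH, against 4.86, 3.02, 3.63 and 3.24 CPM in saline libraries. Its groups did not overlap in F1, with METH lower, as for 2.42% of all genes tested. Crybb1 was named for its small p, a choice that favours groups lying apart. Its log2 fold change was -0.71 (SE 0.23) in F1 and -0.81 (SE 0.30) in F2. Hpgds, a prostaglandin D synthase, had 7.30, 8.17 and 8.88 CPM in F1 METH, against 7.09, 5.56, 5.65 and 5.17 CPM in F1 saline libraries, a log2 fold change of 0.47 (SE 0.15), and of -0.11 (SE 0.14) in F2. The F1 groups of Hpgds, also named for its small p, did not overlap, with METH higher, as for 3.08% of all genes tested. Slc2a5, a fructose transporter, had 9.03, 7.71, 9.55 and 3.76 CPM in F2 METH, against 13.6, 10.6, 9.60 and 8.81 CPM in F2 saline libraries. METH replicate 4 was the low library, and the log2 fold change of Slc2a5 was -0.51 (SE 0.25) in F2, -0.29 without that library, and 0.05 in F1.

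Of 15 genes that signal downstream of microglial receptors, 14 were above 0 in F1 (median 0.15) and 12 were below 0 in F2 (median -0.09). The difference was below 0 for all 15 (median -0.28). For 5 of them its unadjusted p was under 0.05, where 4.88% of all genes passed, 3.16% with a lower value. The other lists had 5 of 20 homeostatic, 2 of 11 ligand, 1 of 12 complement, 3 of 16 disease-associated and 2 of 9 border macrophage genes tested, all lower. Lyn, a Src family kinase, had 5.20, 5.15, 4.96 and 6.26 CPM in F2 METH, against 7.15, 7.94, 7.86 and 6.11 CPM in F2 saline libraries. Saline replicate 4 was the library that lay among the METH values, and the log2 fold change of Lyn in F2 was -0.43 (SE 0.13), against 0.15 (SE 0.17) in F1. Apbb1ip, an integrin adaptor, had a difference of -0.74 (SE 0.24), from log2 fold changes of 0.43 (SE 0.18) in F1 and -0.30 (SE 0.17) in F2. Dock2 and Vav1, exchange factors for Rac, had F1 log2 fold changes of 0.43 (SE 0.18) and 0.45 (SE 0.19). Without F1 METH replicate 3 the F1 values were 0.24 for Dock2, 0.28 for Vav1 and -0.0049 for Lyn.

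Among 12 complement genes other than C1q, 9 were above 0 in F1 and 6 below 0 in F2. Cd59a, an inhibitor of the membrane attack complex, had log2 fold changes of 0.24 (SE 0.14) in F1 and 0.13 (SE 0.096) in F2, and Cr1l, which encodes the regulator Crry, 0.11 (SE 0.18) in F1 and -0.25 (SE 0.11) in F2. Of the ligands of microglial receptors, 8 of 11 tested were above 0 in F1 and 7 of 11 below 0 in F2. Cxcl12, a chemokine that attracts leukocytes, averaged 75.0 ± 6.64 CPM in F1 METH and 60.9 ± 8.16 CPM in F1 saline libraries, a log2 fold change of 0.30 (SE 0.11), and Cd200, a neuronal ligand that restrains microglia, had one of -0.32 (SE 0.17) in F1. Their F2 log2 fold changes were -0.02 (SE 0.11) and -0.03 (SE 0.10). Csf1, Il34 and Cx3cl1, named because they are the ligands of Csf1r and Cx3cr1, had log2 fold changes of 0.14, -0.12 and -0.09 in F1 and 0.04, -0.03 and 0.01 in F2. Apoe, a lipoprotein bound by Trem2, averaged 1183 ± 97.1 CPM in F2 METH and 1351 ± 84.8 CPM in F2 saline libraries, a log2 fold change of -0.19 (SE 0.074), and Clu, encoding clusterin, had one of -0.12 (SE 0.076) in F2. With 1 library left out, the F1 value of Cd59a was 0.099 without METH replicate 2, that of Cr1l -0.052 without METH replicate 3, that of Cd200 -0.21 without saline replicate 2, and the F2 value of Cd59a was 0.059 without METH replicate 1 and that of Clu -0.080 without METH replicate 4.

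Of 24 genes that mark microglia in disease models, 16 had enough counts to be tested in each generation. Cst7, Clec7a, Ccl3, Ccl4, Lilrb4a, Ch25h, Il1b and Tnf did not, with at most 18 reads in a library. The tested genes were mixed, with 11 of 16 above 0 in F1 and 11 of 16 below 0 in F2. Cd9, a tetraspanin, had 38.5, 42.9 and 46.9 CPM in F1 METH, against 38.2, 36.4, 37.7 and 35.0 CPM in F1 saline libraries. In F2 Cd9 had 32.5, 30.5, 33.7 and 32.2 CPM in METH, against 46.6, 37.2, 40.2 and 33.2 CPM in saline libraries. METH lay above saline without overlap in F1, as for 3.08% of all genes tested, and below it with 1 overlapping library in F2. The log2 fold changes of Cd9, also named for its small p, were 0.22 (SE 0.086) in F1 and -0.29 (SE 0.097) in F2. Spp1, encoding osteopontin, had 5.07, 1.24, 3.60 and 2.87 CPM in F2 METH, against 1.51, 1.54, 1.29 and 2.26 CPM in F2 saline libraries, and its F2 log2 fold change of 0.95 (SE 0.37) was opposite to that of most members. Ccl6, a chemokine, averaged 2.79 ± 1.58 CPM in F1 METH and 0.950 ± 0.657 CPM in F1 saline libraries, and its log2 fold change was 1.54 (SE 0.55) in F1 and -0.45 (SE 0.44) in F2. Of 8 further border macrophage genes tested, 7 were above 0 in F1 (median 0.40) and 5 below 0 in F2 (median -0.10). Stab1, a scavenger receptor, had 14.98, 15.4 and 18.6 CPM in F1 METH, against 12.9, 12.1, 12.7 and 11.1 CPM in F1 saline libraries, and a log2 fold change of 0.42 (SE 0.12), against 0.06 (SE 0.11) in F2. The F1 groups of Stab1, also named for its small p, did not overlap, with METH higher, as for 3.08% of all genes tested. Dab2, an endocytic adaptor, had log2 fold changes of 0.29 (SE 0.13) in F1 and 0.0030 (SE 0.14) in F2. With 1 library left out, the F1 value was 0.14 for Cd9 and 1.00 for Ccl6 without METH replicate 3, and the F2 value was 0.63 for Spp1 without METH replicate 1 and -0.099 for Ccl6 without saline replicate 3. In F2, Clec12a, a C-type lectin, had one of 0.32 (SE 0.16) and F13a1, a coagulation factor subunit made by macrophages, one of -0.33 (SE 0.24).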

How the data were processed

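Striatal RNA of 15 male mice was sequenced, and groups and replicate numbers come from the sample titles. The build mm10 and the tools HISAT2 2.1.0, StringTie 2.1.3b, Trimmomatic and bcl2fastq 2.20.0 are named in the submitters' processing notes. Neither strandedness nor how reads were counted is given in the sources used here. The authors deposited 1 table per generation, per the file headers, with FPKM, TPM and whole-number read counts of 45777 features. Each of the 45 value columns names its sample. The deposited counts were used as raw counts.

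The 34 members and the further lists were chosen with earlier results of these data known. Members in full are 12 fixed genes plus, per comparison, the 3 with the smallest p in each direction; of each further list, the 2 with the smallest p per generation are named, except 1 that is not reported here. Each generation was tested on its whole table with edgeR 4.0.16 (glmQLFit, glmQLFTest, TMM, filterByExpr at min.count 10, Benjamini-Hochberg adjustment over all genes tested, threshold 0.05, two-sided), run in R 4.3.3. The difference was the interaction over all 15 libraries. CPM used TMM-scaled totals within a generation, and library deviations used log2 CPM with a prior count of 2. SE is the log2 fold change divided by the square root of F. Alternatives used DESeq2 1.42.0 and limma 3.58.1, and log2 of TPM + 1, TPM + 0.1 and FPKM + 1. For genes of the further lists and for Fcrls, values without 1 library were added after seeing the data. Steps were tested on simulated data. Of 21 replicate pairs, none agreed within sampling noise (chi-square per degree of freedom 16.1 to 65.8). Positions and promoters come from RefSeq tables of GRCm38.p6, matched by gene ID, 1-based. Plots used matplotlib 3.10.9 (Python 3.11.15).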

Additional observations from a re-analysis of the deposited data

Results flagged for a closer look

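Of 102 sets of CPM values of a member in a group of 4 libraries, 6 held a library whose gap to its nearest neighbour was large against the whole range (above Dixon's 95% critical value), where chance gives about 1 in 20. C1qb was at 25.5 CPM in F1 saline replicate 1, with the other F1 saline libraries between 20.9 and 21.6 CPM. Spi1 was at 4.69 CPM in F2 saline replicate 1, with the others between 2.83 and 2.99 CPM, and this is the library in which 24 of 34 members were highest. Tyrobp was at 4.21 CPM in F2 saline replicate 4, with the others between 5.96 and 6.15 CPM. Fcer1g was at 1.95 CPM in F1 saline replicate 2, with the others between 3.02 and 3.15 CPM. Ptprc was at 2.99 CPM in F2 METH replicate 1, with the others between 2.06 and 2.21 CPM, and Lyve1 at 0.585 CPM in F2 METH replicate 4, with the others between 0.316 and 0.341 CPM. The groups of 3 libraries were not examined in this way.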

How the results depend on the processing

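No member passed an adjusted p of 0.05 in any setting run, and members given in full reached an adjusted p of 0.413 at the lowest in F1, 0.142 at the lowest in F2 and 0.398 at the lowest between generations. Few animals, a possible shared founder or litter, low counts of Pf4, Lyve1, Cd163, Mrc1 and Ptprc, and 1 leading library per generation limit these values. Of the log2 fold changes of the 19 members given in full, 13 of 360 alternative values changed sign in F1, 24 of 379 in F2 and 12 of 512 for the difference, and the cause was not tested.

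Genes called over the whole table numbered 7 with DESeq2's Wald test, 3 with limma-voom and 1 each with log2(TPM + 1), log2(TPM + 0.1), log2(FPKM + 1), 1 fit of all 15 libraries and without the libraries with Slc17a7 above 100 CPM in F1, against 0. In F2 they numbered 9 with DESeq2, 1 with limma-voom and 1 without those libraries, against 0. For the difference they numbered 5 with DESeq2 and 0 with limma-voom, a mean CPM of at least 1, the TPM and FPKM scales, without the Slc17a7 libraries, with the replicate block and without F1 METH replicate 3 and F2 saline replicate 1, against 1. Without the Slc17a7 libraries 2 members were above 0 in F2, against 4. With 1 library left out, genes called ran from 0 to 2 in F1, 0 to 1 in F2 and 0 to 2 for the difference. The members' F1 median ran from 0.019 to 0.22, and the members above 0 in F2 from 2 to 13.

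In F1, Trem2 turned to -0.0045 and -0.0058 on log2(TPM + 1) and log2(TPM + 0.1), and without the Slc17a7 libraries Trem2 turned to -0.14, Spi1 to -0.00062 and Aif1 to 0.050. The Slc17a7 libraries were F1 METH replicate 3, F1 saline replicates 1 and 3, F2 METH replicate 2 and F2 saline replicate 4. They include the leading F1 library, so these F1 changes cannot be told apart from leaving that library out. In F2, Spi1 turned to 0.025 with limma-voom and to 0.0018 and 0.0044 on the TPM scales, where Ptprc turned to 0.0041 and 0.012. Cd68 turned to -0.015 on log2(FPKM + 1) and to -0.028 without the Slc17a7 libraries, where Olfml3 turned to -0.054. The difference of Aif1 turned to 0.10 with limma-voom, 0.19 and 0.20 on the TPM scales and 0.13 on FPKM, and without both leading libraries that of Cx3cr1 was 0.058 and that of Spi1 0.15.

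With 1 library left out, F1 ranges crossed 0 for C1qb (-0.039 to 0.30), Cx3cr1 (-0.085 to 0.17), Trem2 (-0.064 to 0.27), Lyve1 (-0.38 to 0.099) and Cd68 (-0.043 to 0.29). F2 ranges did so for P2ry12 (-0.19 to 0.017), Trem2 (-0.24 to 0.021), Spi1 (-0.10 to 0.18), Ptprc (-0.15 to 0.15), Olfml3 (-0.12 to 0.26), Lyve1 (-0.11 to 0.42) and Cd68 (-0.037 to 0.13). The difference did so for Cd163 (-0.36 to 0.023), Aif1 (-0.50 to 0.64) and Cd68 (-0.24 to 0.087).

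The groups share replicate numbers, which come from the sample titles. Same-numbered libraries correlated at -0.035, 0.059 and 0.40 in F1 and at 0.039, -0.062, -0.057 and -0.0043 in F2. These few correlations cannot decide whether samples were paired. A fit with the replicate number as a block called 0 members, with 30 of 34 above 0 in F1 (median 0.16), 28 of 33 below 0 in F2 (median -0.13) and 32 of 34 below 0 for the difference (median -0.27). With the block, Lyve1 turned to 0.16 in F1 and -0.027 for the difference, Ptprc to 0.00068 in F2 and Aif1 to 0.083 for the difference.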
